A study of Mus musculus with 9 samples.

Results

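The 29 genes described here make, sense, move and export cholesterol, and they were followed through cisplatin injury of the mouse kidney. They were taken by symbol from 55385 gene IDs: 19 enzymes of cholesterol synthesis, 5 genes that control sterol-responsive transcription, and 5 genes of sterol transport, efflux and the liver X receptors. All 29 matched an ID, and all 29 were among the 13718 genes tested, which reached 1 FPKM or more in 3 or more of the 9 libraries. The series measured kidney RNA of C57BL/6 mice by bulk sequencing, 3 libraries per group, which the design text calls biological repeats. Sham mice received normal saline in the same volume as the drug. The treated groups received 1 intraperitoneal injection of cisplatin at 20 mg/kg, a platinum compound that damages DNA and is toxic to renal tubules, and were studied 3 days or 7 days after it. The labels give neither the age and sex of the mice nor the time at which the sham kidneys were taken, and they name no genetic change. Values are FPKM, a fragment count divided by transcript length and by library size, so levels can be compared between genes per length. In bulk tissue fewer cells of a type and less RNA per cell cannot be told apart.

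Cholesterol is built from acetyl-CoA in a chain of enzymes that first makes mevalonate and isoprenoid units, joins them into squalene, closes squalene into lanosterol, and then trims and reshapes the ring. Most of these enzyme genes are targets of SREBP-2, a transcription factor held in the endoplasmic reticulum by SCAP and the INSIG proteins while sterols are plentiful, and released to the nucleus when they fall. Surplus sterol is met in the opposite way: oxysterols activate the liver X receptors, which raise the efflux pumps ABCA1 and ABCG1. Tubule cells of the kidney both make cholesterol and take it up with filtered and circulating lipoproteins.

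The promoters of 5 synthesis genes are printed because the results turn on these genes. Hmgcs1, Cyp51, Idi1 and Nsdhl had the largest differences between day 7 and day 3 among members with a single promoter in the RefSeq table, and Msmo1 had the largest rise at day 3. Each line gives the 250 bases before the RefSeq start on GRCm38.p6, 5′ to 3′ on the gene's strand. The windows are chr13:119690101-119690350 (plus strand), chr5:4104698-4104947 (minus), chr13:8885356-8885605 (plus), chrX:72918271-72918520 (plus) and chr8:64733579-64733828 (minus). Capitals mark CCAAT or its reverse complement ATTGG (the NF-Y box), GGGCGG or CCGCCC (the Sp1 box), and TCACNCCAC in either orientation (a form of the sterol regulatory element).
Hmgcs1: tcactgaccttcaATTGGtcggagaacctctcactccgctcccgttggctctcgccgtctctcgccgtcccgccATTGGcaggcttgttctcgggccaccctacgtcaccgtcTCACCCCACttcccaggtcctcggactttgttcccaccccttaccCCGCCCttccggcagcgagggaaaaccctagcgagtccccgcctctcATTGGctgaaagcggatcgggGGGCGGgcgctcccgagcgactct
Cyp51: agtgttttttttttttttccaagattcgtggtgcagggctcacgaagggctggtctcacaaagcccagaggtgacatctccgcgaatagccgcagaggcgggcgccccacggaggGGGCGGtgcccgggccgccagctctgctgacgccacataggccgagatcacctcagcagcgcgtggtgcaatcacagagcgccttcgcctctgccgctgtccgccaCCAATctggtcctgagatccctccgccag
Idi1: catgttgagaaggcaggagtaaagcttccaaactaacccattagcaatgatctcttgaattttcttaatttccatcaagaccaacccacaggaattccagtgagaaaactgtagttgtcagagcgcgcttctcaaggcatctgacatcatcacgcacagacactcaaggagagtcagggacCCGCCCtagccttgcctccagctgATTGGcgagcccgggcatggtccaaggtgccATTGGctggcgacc
Nsdhl: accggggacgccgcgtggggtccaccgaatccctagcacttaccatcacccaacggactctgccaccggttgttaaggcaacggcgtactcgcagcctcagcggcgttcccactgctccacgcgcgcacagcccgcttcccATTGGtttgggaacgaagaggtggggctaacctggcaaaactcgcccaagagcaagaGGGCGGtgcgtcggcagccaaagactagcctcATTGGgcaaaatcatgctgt
Msmo1: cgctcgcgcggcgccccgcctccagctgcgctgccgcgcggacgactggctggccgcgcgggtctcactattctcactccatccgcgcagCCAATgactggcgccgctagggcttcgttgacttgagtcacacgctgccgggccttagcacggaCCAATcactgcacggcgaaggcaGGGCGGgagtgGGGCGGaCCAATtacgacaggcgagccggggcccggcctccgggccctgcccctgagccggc

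The table held promoters for 24 of the 29 members. An NF-Y box stood in at least 1 window of 19 of these 24 (79.2%), against 37.5% of 27025 genes in the table, and an Sp1 box in 21 of 24 (87.5%), against 35.4%. Of the 16 synthesis enzymes in the table, 15 held an NF-Y box and 15 an Sp1 box. The sterol element TCACNCCAC was found in Hmgcs1 alone among the 24, and in 1.22% of all genes. A looser form, TCACNNCA, chosen after the data were seen, stood in 9 of 24 members (37.5%) and 13% of all genes. The direct repeat bound by liver X receptors with its heterodimer partner, searched as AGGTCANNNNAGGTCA on both strands, was in 0 of 24 members and 0.0148% of all genes. With 4 of 27025 genes matching, this exact form is too rare for the 0 to tell whether members hold receptor sites. All of these counts are matches of letters in a short window. Msmo1, which rose at day 3, and Hmgcs1, Cyp51 and Nsdhl, which fell, all hold both NF-Y and Sp1 boxes.

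Some libraries stood apart from their group. Library sums lay between 421810 and 509537 FPKM, and 11647 to 13183 genes reached 1 FPKM. Kidney markers bore out the tissue label: 10 proximal tubule genes summed to 30287, 36091 and 39120 FPKM in sham libraries 1, 2 and 3. Kap made up most of this sum in every library, with 28501.44, 32376.78 and 35637.29 FPKM in sham. Of 8 markers of the adjoining adrenal gland, 6 were at 0.23 FPKM or less in every library, Cyp11b1 and Nr5a1 at 0 in all 9. The other 2 were tested: Scarb1 was higher at day 3 (0.60, limma, adjusted p = 0.00542) and Star was not called (0.37, adjusted p = 0.0561). Scarb1 is also counted among the genes of lipoprotein uptake below. At day 3 all 10 proximal tubule markers were lower (median log2 fold change -3.15), with sums of 2528, 12853 and 16846 FPKM, and 6 of 7 injury markers were higher. Sham library 1 and day 3 library 1 shared a high summed level of 11 PPAR alpha target genes, a group that rises in fasting, although Fgf21 among them was at 0.26 FPKM or less throughout. These genes summed to 2590, 574 and 746 FPKM in the sham kidneys, to 2372, 874 and 845 on day 3 and to 656, 511 and 664 on day 7. Day 7 library 2 had the highest injury marker sum of its group (1996 FPKM against 625 and 656), with Havcr1 at 58.22 FPKM against 1.04 and 1.45. Most of that sum was Spp1, at 1809.51 FPKM against 551.74 and 575.54. Sham 2 held 35.45 FPKM of Havcr1, against 8.29 in sham 1 and 1.5 in sham 3. The injury marker sum of the sham group was highest in sham 1 (773 FPKM against 425 and 418). Of 6 liver markers, 0 were higher and 3 lower at day 3, where Alb ran from 0.46 to 118.08 FPKM, the top value in library 2. The part of these markers in the results was not tested. Member calls that leaving out sham 1 adds or removes are given with the value without it.

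More cholesterol synthesis genes were lower than higher at day 3, led by Cyp51, Ebp, Mvd and Nsdhl. More were higher than lower at day 7, led by Idi1 and Hmgcs1, but no day 7 call against sham on a member outlasted a correction for GC content and transcript length. Msmo1, Hsd17b7 and Sc5d were called higher at day 3, Sc5d no longer so after that correction. Summed over the 19 enzymes, the level was 214, 329 and 334 FPKM in the sham kidneys, 146, 136 and 138 on day 3, and 429, 400 and 459 on day 7. The 3 day 3 sums lay below every sham sum and the 3 day 7 sums above every sham sum. These sums lean on abundant genes. Hmgcs1 alone gave 38.41, 60.75 and 77.68 FPKM of the sham sums and 142.76, 133.49 and 145.86 FPKM of the day 7 sums.

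**Figure D1:**
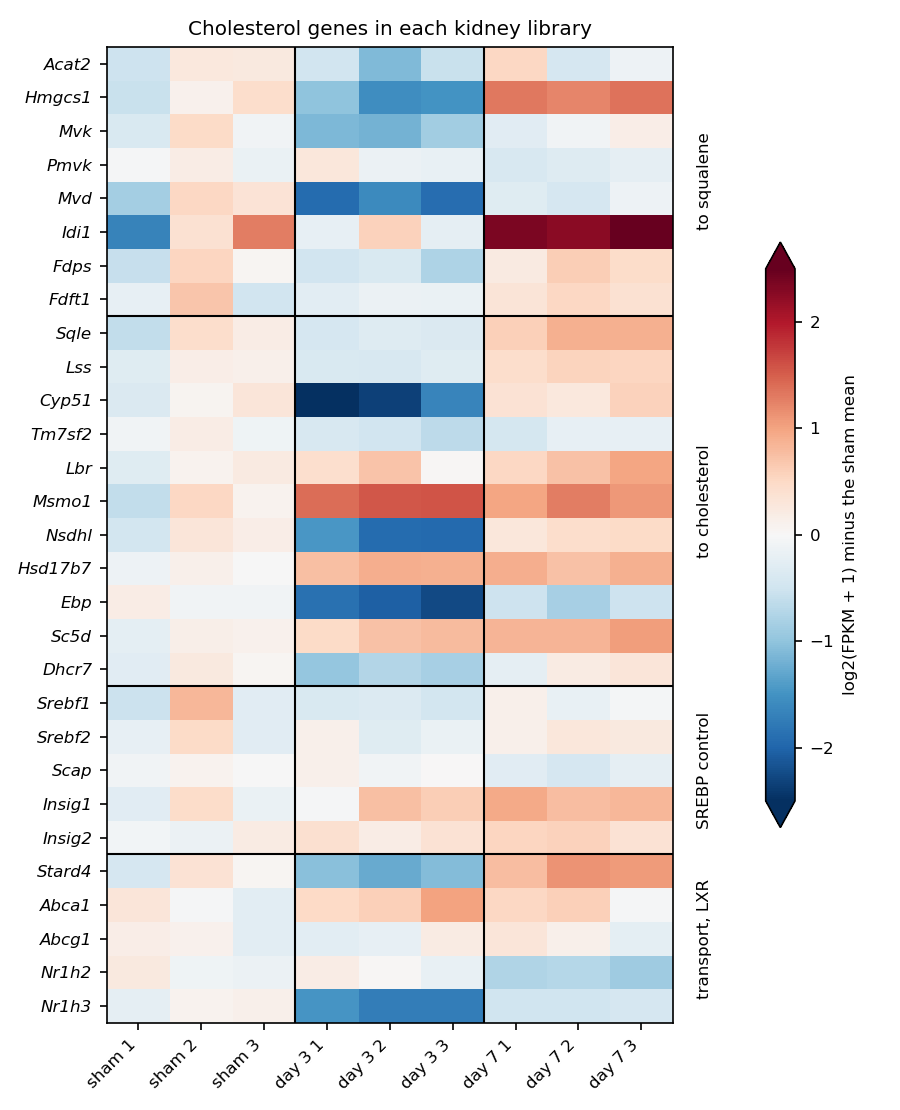
Log2(FPKM + 1) of each of the 29 genes in each of the 9 libraries, minus the mean of the 3 sham libraries (colour, log2 units; values past 2.5 take the end colours). Rows are ordered by place in the pathway and black lines part the roles and the groups. Cyp51, Ebp, Mvd and Nsdhl are low in all 3 day 3 libraries, Msmo1 is high in all 6 cisplatin libraries, Idi1 is highest in the 3 day 7 libraries, and sham 1 is bluer than sham 2 in most enzyme rows.

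At day 3, limma called 15 of the 29 genes different from sham at an adjusted p under 0.05, 4 higher and 11 lower. Across all tested genes 59.9% were called, 39.3% higher and 20.6% lower, so that the share of members called was near the background and their direction was the other way. The median log2 fold change was -0.36 over the members and 0.25 over all tested genes. Median-of-ratios scaling moves the all-gene median to 0.03, and under it 2 members were higher and 13 lower (29.8% and 28.8% of all genes). At least 2-fold changes were called for 1 member upward (17.1% of all genes) and 8 downward (9.36%). The groups did not overlap for 15 of 29 members, against 64% of all genes. Leaving out sham 1 gave 4 higher and 14 lower, with Acat2, Fdps and Sqle added. Of the 15 calls, 12 held under every alternative fit in which the gene was tested, the 2-fold minimum aside; those on Lss, Sc5d and Abca1 were lost under at least 1. The proximal tubule markers, whose median fell further than that of the enzymes (-3.15 against -0.51), were lower too, as were 5 of 6 distal nephron markers (median -2.66). The part of either group in the enzyme falls was not tested.

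At day 7, 14 of the 29 were called against sham, 11 higher and 3 lower, beside 29.7% of all tested genes (19.3% higher, 10.4% lower). The median was 0.40 over the members and 0.06 over all genes. Groups did not overlap for 17 of 29, against 48.7% of all genes. None of these 14 calls survived removal of a trend with GC content and transcript length from each library: limma then called 0 members, with 10 higher and 1 lower at an unadjusted p under 0.05. After the same correction 4.26% of all genes were called higher and 1.98% lower. The split also moved with scaling, to 6 higher and 4 lower under median-of-ratios scaling (16.4% and 16.2% of all genes; all-gene median -0.02). Before the correction, 3 members were called at least 2-fold higher (2.81% of all genes) and 0 at least 2-fold lower (1.3%). Leaving out any 1 day 7 library left 6 members called higher, and leaving out sham 1 left 8 higher and 4 lower. Of the distal nephron markers, 2 of 6 were also higher at day 7, Slc12a1 by 1.24 ± 0.35 (limma, adjusted p = 0.0295) and Slc12a3 by 0.74 ± 0.21 (adjusted p = 0.0312). After the GC content and length correction limma called 0 of these 6, with 2 higher at an unadjusted p under 0.05. Under median-of-ratios scaling 1 of the 6 was called. Of the 10 proximal tubule markers, 0 were called. The part of either marker group in the member values was not tested.

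Day 7 set against day 3 does not use the sham means, although the estimate of spread is shared. Here 13 members were higher and 2 lower, beside 55.4% of all tested genes called (21.7% higher, 33.7% lower). The member median was 0.61 and the all-gene median -0.16. Groups did not overlap for 22 of 29 members, against 64.4% of all genes. At least 2-fold rises were called for 9 (9.54% of all genes) and at least 2-fold falls for 0 (14.4%). Median-of-ratios scaling gave 14 higher and 1 lower, beside 27.3% of all genes in each direction. All 13 members called higher held under every alternative fit in which they were tested, the GC content and length correction included and the 2-fold minimum aside, while Scap, 1 of the 2 called lower, was lost under 11 of them. Between the times 9 of 10 proximal tubule markers (median 3.08) and 5 of 6 distal nephron markers (median 3.17) were higher as well, and their part was not tested. The other 2 comparisons share the sham libraries, so their changes are given side by side for each gene and not counted as separate evidence.

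**Figure D2:**
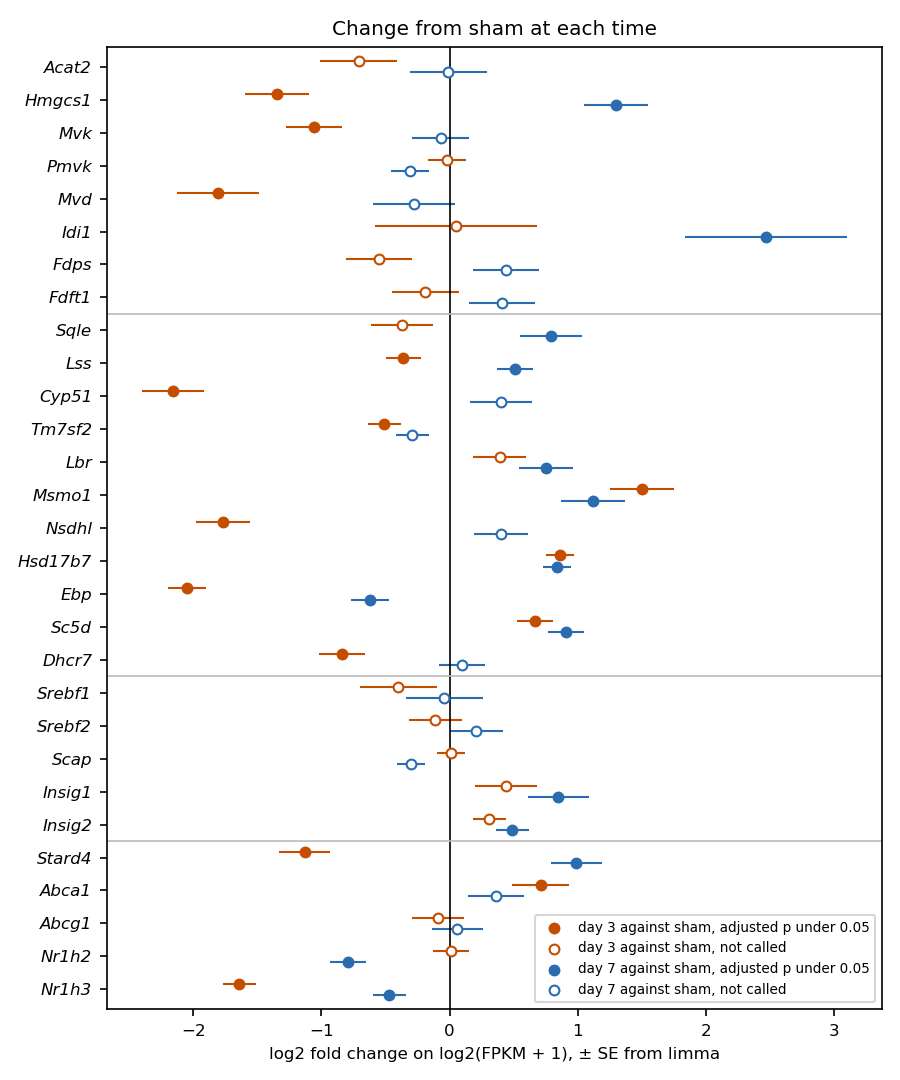
Log2 fold change from sham on log2(FPKM + 1) at day 3 (orange) and day 7 (blue) for each of the 29 genes, with the standard error from limma over 3 libraries per group. Filled points passed an adjusted p of 0.05 over all 13718 tested genes. Cyp51 (-2.16) and Ebp (-2.05) lie furthest left at day 3 and Idi1 (2.47) furthest right at day 7, and the day 7 points are filled only before correction for GC content and length.

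The first arm of synthesis, from acetyl-CoA to squalene, has 8 members. At day 3 none was higher and 3 were lower, at day 7 2 were higher and none lower, and between the times 5 rose and none fell. The shares over all tested genes were 39.3% and 20.6%, 19.3% and 10.4%, and 21.7% and 33.7%, so the day 7 count was near its background. Hmgcs1 (chromosome 13, 119690379 to 119708260), which encodes the cytosolic HMG-CoA synthase, was the most abundant of the arm. It stood at 38.41, 60.75 and 77.68 FPKM in sham 1 to 3, at 27.84, 18.64 and 19.53 on day 3, and at 142.76, 133.49 and 145.86 on day 7. The 3 groups did not overlap: every day 3 library was below every sham library, and every day 7 library above. The log2 fold change was -1.35 ± 0.25 (SE) at day 3 (limma, adjusted p = 0.00152) and 1.30 ± 0.25 at day 7 (adjusted p = 0.00628, and 0.89 with adjusted p = 0.0599 after the GC content and length correction). Its rise between the times was 2.64 ± 0.25 (adjusted p = 5.65e-05).

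Idi1 (chromosome 13, 8885501 to 8892451), the isomerase that supplies the reactive isoprenoid unit, was at 1.19, 7.99 and 15.95 FPKM in the sham kidneys, 5, 9.32 and 4.94 on day 3, and 34.56, 32.35 and 47.23 on day 7. Day 3 lay within the sham range, and every day 7 library was at least 32.35 FPKM, above all others. The change from sham was 0.05 ± 0.63 at day 3 (limma, adjusted p = 0.954) and 2.47 ± 0.63 at day 7 (adjusted p = 0.0199), and the day 7 call was lost after the GC content and length correction (2.04, adjusted p = 0.0914), and when day 7 library 1 or 3 was left out (adjusted p = 0.0505 and 0.064). Without sham 1 the day 7 change was 1.64 and still called. Between the times Idi1 rose by 2.43 ± 0.63 (adjusted p = 0.0105). Its paralog Idi2 was at 0.17 FPKM or less in every library.

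Mvd (chromosome 8, 122433601 to 122443422), which encodes the decarboxylase at the end of the mevalonate steps, was at 12.64, 34.18 and 30.15 FPKM in the sham kidneys, 5.46, 7.18 and 5.55 on day 3, and 18.94, 17.51 and 21.48 on day 7. Its day 3 values were below all others, and its day 7 values fell in the gap between sham 1 and the other sham libraries. Mvd fell by 1.81 ± 0.32 on the log2 scale at day 3 (limma, adjusted p = 0.00118), was at -0.28 ± 0.32 against sham at day 7 (adjusted p = 0.538), and rose by 1.53 ± 0.32 between the times (adjusted p = 0.00332). Without sham 1 the day 7 value became -0.71 and was called (adjusted p = 0.0139).

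Mevalonate kinase, Mvk (chromosome 5, 114444269 to 114460591), was at 2.29, 4.98 and 3.04 FPKM in the sham kidneys, 0.98, 0.89 and 1.34 on day 3, and 2.55, 3.03 and 3.82 on day 7. Day 3 was separate from both other groups, which overlapped. It changed by -1.06 ± 0.22 at day 3 (limma, adjusted p = 0.00302) and by 0.99 ± 0.22 between the times (adjusted p = 0.00479), and stood at -0.07 ± 0.22 against sham at day 7. The prenyl synthase Fdps was at 2.54, 6.63 and 4.49 FPKM in the sham kidneys, 2.78, 3.05 and 2.08 on day 3, and 5.18, 7.16 and 6.30 on day 7. Sham 1 lay among the day 3 libraries and sham 2 among those of day 7, so neither comparison with sham was called (-0.55 ± 0.26 and 0.44 ± 0.26). Without sham 1 the day 3 change was -0.84 and called (adjusted p = 0.00743). The day 3 change also passed with all 9 libraries on values rescaled by median of ratios (-0.78, adjusted p = 0.035) or by quantiles (-0.82, adjusted p = 0.0283). The rise between the times was called (0.99 ± 0.26, adjusted p = 0.0109). Fdps exons share 1124 bases (26.7%) with Gm43738 on the same strand. That gene averaged 0.553 FPKM at day 3 and 0 in sham and at day 7, so part of the Fdps reads may be uncertain.

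Squalene synthase, Fdft1, was at 6.54, 12.94 and 5.20 FPKM in the sham kidneys, 6.19, 6.87 and 6.68 on day 3, and 9.89, 11.41 and 10.32 on day 7. Sham 2 alone exceeded the day 7 libraries. No comparison was called when all 9 libraries were fitted without rescaling (-0.19 ± 0.26, 0.41 ± 0.26, and 0.61 ± 0.26 with adjusted p = 0.0745 between the times). The rise between the times did pass on values rescaled by median of ratios (0.76, adjusted p = 0.0337) or by quantiles (0.78, adjusted p = 0.0219). It also passed when only the 6 compared libraries were fitted (0.61, adjusted p = 0.00298). Without sham 2 the day 7 change from sham was 0.75 and was called (adjusted p = 0.0135). Its exons share 774 bases with the opposite strand gene Ctsb, which averaged 105 FPKM in sham, so part of its reads may be uncertain. Acat2, the cytosolic thiolase that starts the chain, and Pmvk, the second kinase, were not called in any comparison when all 9 libraries were fitted without rescaling. On values rescaled by median of ratios, the Acat2 change at day 3 was -1.0 and passed (adjusted p = 0.0292). With quantile normalization the Acat2 rise between the times was 0.84 and passed (adjusted p = 0.0472). Without sham 1, Acat2 was called at day 3 (-0.97, adjusted p = 0.0205) and between the times (0.70, adjusted p = 0.0477). Their group means lay between 18.9 and 32.0 FPKM for Acat2 and between 6.81 and 8.75 FPKM for Pmvk. Acat2 has a close neighbouring copy, Acat3, which ran from 7.39 to 49.16 FPKM, and reads of the pair may be shared.

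The second arm, from squalene to cholesterol, has 11 members and held the widest range of day 3 changes, from -2.16 to 1.5. At day 3, 3 were higher and 6 lower. At day 7, 6 were higher and 1 lower before the GC content and length correction, and between the times 6 rose and none fell. The shares over all tested genes were 39.3% higher and 20.6% lower at day 3, 19.3% and 10.4% at day 7, and 21.7% and 33.7% between the times. The day 3 count of higher members was thus under its background and the day 7 count of lower members near it. Within the demethylation steps, which remove methyl groups from the lanosterol ring, neighbouring enzymes moved apart at day 3. Cyp51 and Nsdhl fell while Msmo1 and Hsd17b7 rose.

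Cyp51 (chromosome 5, 4081145 to 4104746), the lanosterol demethylase, was at 34.06, 46.04 and 54.05 FPKM in the sham kidneys, 6.99, 7.90 and 13.36 on day 3, and 56.38, 52.66 and 66.22 on day 7. No day 3 library came near the others, while day 7 overlapped sham. It fell by 2.16 ± 0.24 at day 3 (limma, adjusted p = 0.000109), was at 0.40 ± 0.24 against sham at day 7 (adjusted p = 0.25), and rose by 2.55 ± 0.24 between the times (adjusted p = 6.16e-05). Nsdhl (chromosome X, 72918557 to 72958514), a dehydrogenase of the same steps, was at 15.55, 27.10 and 24.64 FPKM in the sham kidneys, 7.38, 5.05 and 4.97 on day 3, and 26.88, 29.98 and 30.84 on day 7. The day 3 libraries were again the lowest, and the day 7 libraries reached the top of the sham range or passed it. Its changes were -1.77 ± 0.21 at day 3 (adjusted p = 0.000163), 0.40 ± 0.21 at day 7 (adjusted p = 0.19) and 2.17 ± 0.21 between the times (adjusted p = 7.45e-05).

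Msmo1 (chromosome 8, 64718139 to 64733792), the methyl sterol monooxygenase, went the other way at day 3. It was at 2.02, 5.61 and 3.88 FPKM in the sham kidneys, 11.08, 12.45 and 12.65 on day 3, and 8.16, 10.17 and 8.81 on day 7. All 6 cisplatin libraries were above all 3 sham libraries. The log2 fold change was 1.5 ± 0.25 at day 3 (limma, adjusted p = 0.000866) and 1.12 ± 0.25 at day 7 (adjusted p = 0.0114, and 0.83 with adjusted p = 0.0831 after the GC content and length correction). Its partner Hsd17b7, the sterol keto-reductase, had group means of 2.60 ± 0.311 FPKM in sham, 5.5 ± 0.369 at day 3 and 5.42 ± 0.438 at day 7 (SD, n = 3), with changes of 0.86 ± 0.11 at day 3 (adjusted p = 0.000243) and 0.84 ± 0.11 at day 7 (adjusted p = 0.00186, and 0.38 with adjusted p = 0.0929 after the correction). Sc5d, the desaturase of the ring, averaged 5.56, 9.40 and 11.3 FPKM in the 3 groups in order of time. Its change was 0.67 ± 0.14 at day 3 (adjusted p = 0.00354) and 0.91 ± 0.14 at day 7 (adjusted p = 0.00309). Both Sc5d calls were lost after the GC content and length correction (adjusted p = 0.0917 and 0.139), and the day 3 call under median-of-ratios scaling (adjusted p = 0.0822).

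Ebp (chromosome X, 8185329 to 8193512), the sterol isomerase, was at 47.93, 39.80 and 39.47 FPKM in the sham kidneys, 10.86, 9.48 and 8.07 on day 3, and 29.23, 23.28 and 29.32 on day 7. The 3 groups were fully separate, with day 7 between the others, and here sham 1 was the highest sham library. Ebp fell by 2.05 ± 0.15 at day 3 (limma, adjusted p = 1.36e-05) and stood at -0.62 ± 0.15 at day 7 (adjusted p = 0.0148, and -0.46 with adjusted p = 0.107 after the GC content and length correction). Between the times it rose by 1.43 ± 0.15 (adjusted p = 8.65e-05). Dhcr7, the last reductase, averaged 3.13 ± 0.748 FPKM in sham, 1.28 ± 0.181 at day 3 and 3.42 ± 0.802 at day 7. It was lower at day 3 (-0.84 ± 0.18, adjusted p = 0.00348) and higher at day 7 than at day 3 (0.94 ± 0.18, adjusted p = 0.00222).

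Sqle, the epoxidase that acts on squalene, was at 5.77, 13.12 and 10.80 FPKM in the sham kidneys, 6.80, 7.38 and 7.07 on day 3, and 14.77, 18.26 and 18.23 on day 7. Sham 1 was below every day 3 library and the other sham libraries above them, so the day 3 change was not called (-0.37 ± 0.24, adjusted p = 0.22). Without sham 1 it was -0.68 and called (adjusted p = 0.00356). The day 7 libraries exceeded all others (0.79 ± 0.24 against sham, adjusted p = 0.0382, 0.48 with adjusted p = 0.0367 without sham 1, and 0.62 with adjusted p = 0.149 after the GC content and length correction). From day 3 to day 7 the change was 1.16 ± 0.24 (adjusted p = 0.00348). Lss, which closes the ring, was weak at 1.60, 1.01 and 2.67 FPKM on average. It was lower at day 3 (-0.36 ± 0.14, adjusted p = 0.0474, a call lost under 11 alternatives) and higher at day 7 (0.51 ± 0.14, adjusted p = 0.0242, and 0.25 with adjusted p = 0.276 after the GC content and length correction).

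The sterol reductases Tm7sf2 and Lbr act on the same double bond, and Lbr is also a receptor of the inner nuclear membrane. Tm7sf2 fell from 2.51 ± 0.417 to 1.46 ± 0.223 FPKM at day 3 (-0.51 ± 0.13, limma, adjusted p = 0.00951) and averaged 1.87 FPKM at day 7 (-0.29 ± 0.13, adjusted p = 0.134). Its exons share 532 bases with Vps51 on the same strand, which averaged 4.42 FPKM in sham, so part of its reads may be uncertain. Lbr averaged 3.69 ± 0.859 FPKM in sham, 5.18 ± 1.46 at day 3 and 6.86 ± 1.25 at day 7. It was called higher only in the comparison of day 7 with sham (0.75 ± 0.21, adjusted p = 0.0297), and neither without sham 1 (0.59, adjusted p = 0.0815) nor after the GC content and length correction (0.40, adjusted p = 0.288).

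Of the 5 genes that control sterol-responsive transcription, Insig1 and Insig2 were called higher at day 7 and Scap lower at day 7 than at day 3. None of the 5 was called at day 3 by limma, where 1 had an unadjusted p under 0.05 (Insig2, 0.0392). Srebf2, which encodes the main activator of the pathway, was at 6.85, 11.57 and 6.47 FPKM in the sham kidneys, 8.90, 6.31 and 7.08 on day 3, and 8.88, 9.92 and 9.66 on day 7. All 6 cisplatin libraries were below sham 2, and the changes were -0.11 ± 0.21 (adjusted p = 0.658) and 0.21 ± 0.21 (adjusted p = 0.468). Srebf1, the related activator that favours fatty acid genes, was at 3.01, 9.33 and 3.8 FPKM in the sham kidneys, 3.48, 3.59 and 3.23 on day 3, and 5.35, 4.13 and 4.61 on day 7. Again sham 2 was above every other library. Its changes were -0.40 ± 0.30 (adjusted p = 0.284) and -0.04 ± 0.30 (adjusted p = 0.937).

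Scap, the escort protein of both activators, was at 9.11, 10.44 and 9.74 FPKM in the sham kidneys, 10.77, 9.09 and 9.78 on day 3, and 7.88, 7.07 and 8.23 on day 7. Its day 7 values were the lowest, with a change from day 3 of -0.32 ± 0.11 (limma, adjusted p = 0.0346) that was gone after the GC content and length correction (-0.11, adjusted p = 0.39). Insig1, an anchor of SCAP and itself an SREBP target, was at 6.77, 11.97 and 7.37 FPKM in the sham kidneys, 8.31, 14.85 and 13.38 on day 3, and 17.32, 15.04 and 15.76 on day 7. Every day 7 library exceeded all others, while day 3 ran from the sham level to just under day 7. Its changes were 0.44 ± 0.24 at day 3 (adjusted p = 0.143) and 0.85 ± 0.24 at day 7 (adjusted p = 0.0298, 0.71 with adjusted p = 0.0837 without sham 1, and 0.78 with adjusted p = 0.089 after the correction). Without day 3 library 1 the day 3 change was 0.68 and called (adjusted p = 0.0275), and without sham 2 it was 0.67 and called (adjusted p = 0.0359). Insig2, the other anchor, was at 6.68, 6.27 and 8.30 FPKM in the sham kidneys, 9.55, 8.08 and 9.37 on day 3, and 10.59, 10.95 and 9.34 on day 7. Only day 7 cleared the sham range, at 0.49 ± 0.13 (adjusted p = 0.0222, 0.46 with adjusted p = 0.0541 without sham 1, and 0.29 with adjusted p = 0.185 after the correction). Without sham 3 the Insig2 change at day 3 was 0.42 and called (adjusted p = 0.0235).

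Stard4 (chromosome 18, 33199355 to 33213862), a soluble carrier that moves cholesterol between membranes and is an SREBP target, showed the same order of groups as Hmgcs1. It was at 5.20, 9.66 and 7.62 FPKM in the sham kidneys, 3.03, 2.44 and 2.93 on day 3, and 13.13, 17.06 and 16.37 on day 7. No groups overlapped. The changes were -1.13 ± 0.20 at day 3 (limma, adjusted p = 0.00118), 0.99 ± 0.20 at day 7 (adjusted p = 0.00763, and 0.51 with adjusted p = 0.152 after the GC content and length correction), and 2.12 ± 0.20 between the times (adjusted p = 5.63e-05).

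Nr1h3 (chromosome 2, 91184061 to 91202834), which encodes liver X receptor alpha, was at 14.69, 18.54 and 19.07 FPKM in the sham kidneys, 5.56, 4.56 and 4.54 on day 3, and 12.06, 11.94 and 12.75 on day 7. The 3 groups were separate, with day 3 lowest. It fell by 1.64 ± 0.13 at day 3 (limma, adjusted p = 1.97e-05) and rose by 1.17 ± 0.13 between the times (adjusted p = 0.000113). At day 7 it stood at -0.47 ± 0.13 against sham (adjusted p = 0.0252), and at -0.02 (adjusted p = 0.96) after the GC content and length correction. Nr1h2, which encodes liver X receptor beta, was at 18.98, 14.74 and 14.27 FPKM in the sham kidneys, 18.13, 16.27 and 13.75 on day 3, and 8.97, 9.23 and 8.15 on day 7. Day 3 overlapped sham and day 7 lay below both. Its change was 0.01 ± 0.14 at day 3 (adjusted p = 0.97) and -0.79 ± 0.14 at day 7 (adjusted p = 0.00526, and -0.28 with adjusted p = 0.237 after the correction). From day 3 to day 7 it was -0.79 ± 0.14 (adjusted p = 0.00161).

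The efflux pumps were expressed close to the filter of 1 FPKM. Abca1, which loads cholesterol onto apolipoprotein A-I, was at 1.70, 1.14 and 0.84 FPKM in the sham kidneys, 2.12, 2.34 and 3.43 on day 3, and 2.16, 2.3 and 1.16 on day 7. The day 3 libraries were all above sham, and day 7 overlapped both groups. The day 3 change of 0.71 ± 0.22 was called (limma, adjusted p = 0.0212) and was lost when sham 2, sham 3 or day 3 library 3 was left out (adjusted p = 0.0589, 0.0735 and 0.0748) and under median-of-ratios scaling (adjusted p = 0.0553). Abcg1, the pump that serves larger lipoproteins, was at 1.20, 1.13 and 0.63 FPKM in the sham kidneys, 0.64, 0.71 and 1.26 on day 3, and 1.44, 1.15 and 0.66 on day 7. Its groups overlapped throughout, and its changes were between -0.09 and 0.15. Both pumps are expressed in macrophages. Of 12 macrophage markers 9 were tested, and 3 were higher and 4 lower at day 3, with a median log2 fold change of -0.97. The sum of the 12 was 89.8, 90.3 and 97.4 FPKM in the sham kidneys, 173, 251 and 229 on day 3, and 51.0, 136 and 46.0 on day 7. Most of the day 3 sum was Cd68 and Cd14. Cd68 averaged 4.38 FPKM in sham and 98.5 at day 3, and Cd14 3.12 and 39.9. Adgre1 was at 1.07 FPKM or less in sham and at day 3, and no macrophage marker was at 0 in any library. The part of these markers in the Abca1 result was not tested.

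The 3 sham libraries disagreed over these genes more than the libraries of either cisplatin group. The median span between the highest and the lowest library on the log2 scale was 0.65 over the 29 members in sham, 0.34 at day 3 and 0.28 at day 7. Over all tested genes the median span was 0.36, 0.36 and 0.26. A sham span of at least 1 was found for 7 of 29 members, beside 9.12% of all genes, and for 0 of 29 at day 3 (9.43% of all genes) and 0 of 29 at day 7 (5.01%). Idi1 spanned 2.95, Mvd and Srebf1 1.37, and Fdft1, Msmo1, Fdps and Sqle between 1.06 and 1.17.

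The disagreement had a direction. Sham 1 was the lowest sham library for 20 of 29 members, including 15 of 19 enzymes, against 29.9% of all tested genes. Sham 2 was the highest for 19 of 29, against 23.9% of all genes. Against the sham mean, the member median was -0.29 in sham 1, 0.19 in sham 2 and 0.05 in sham 3. It was -0.38, -0.31 and -0.30 in the day 3 libraries, so that sham 1 came close to the day 3 level by this measure, while its enzyme sum of 214 FPKM remained above theirs. In the day 7 libraries the median was 0.33, 0.44 and 0.36.

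Other measures moved with sham 1. The PPAR alpha target sum was 2590 FPKM there against 574 and 746, with Cyp4a14 at 501.07, 13.72 and 25.24 FPKM and Pdk4 at 59.59, 2.93 and 12.96. The proximal tubule sum, which is mostly Kap, was lowest in sham 1, at 30287 FPKM. The median deviation of the same markers from the sham mean was also lowest there (-0.37 against 0.26 and 0.19). The fatty acid synthesis sum was 247 FPKM against 409 and 357. The injury marker sum was highest in sham 1, at 773 FPKM against 425 and 418. Most of it was Spp1, at 675.69, 300.47 and 320.29 FPKM, while Havcr1 was highest in sham 2. The adipose marker sum was 19.1 FPKM against 7.06 and 8.77. Their part in the low sterol enzyme levels of sham 1 was not tested. Day 3 library 1, where the PPAR alpha target sum was also high, had an enzyme sum of 146 FPKM, against 136 and 138 in the rest of its group. Leaving out both libraries gave 4 members higher and 14 lower at day 3, and 10 higher and 5 lower at day 7.

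**Figure D3:**
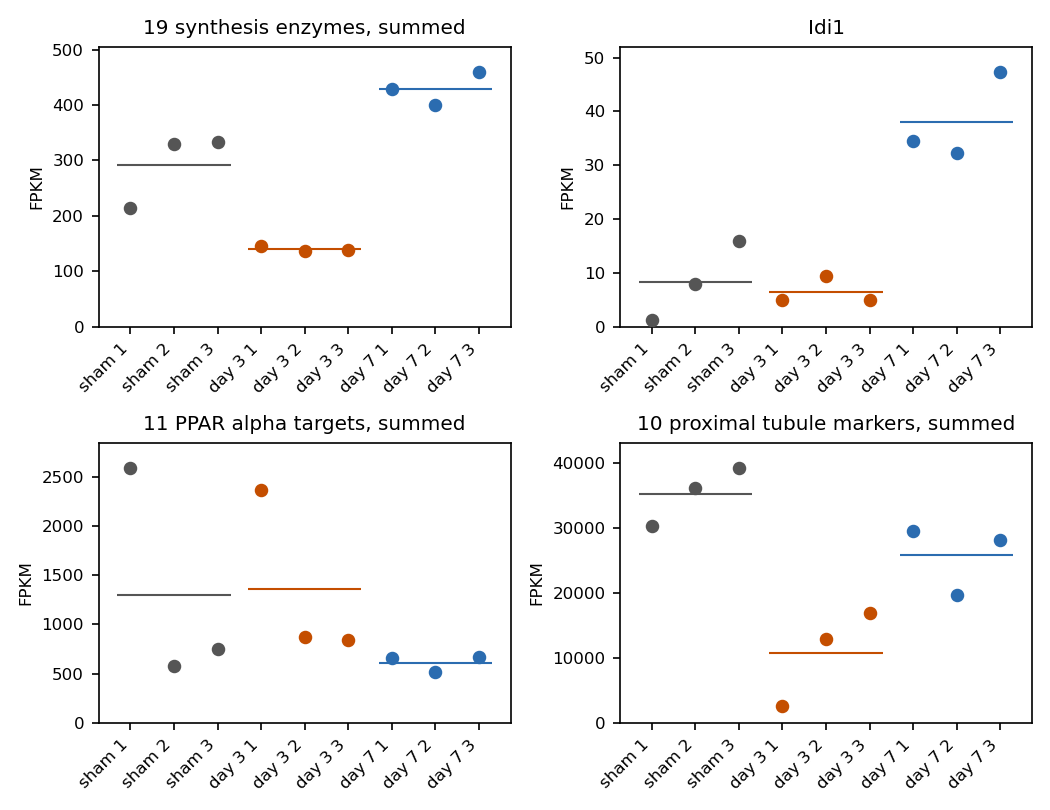
FPKM in each of the 9 libraries (points) with the group mean (lines), for the summed 19 synthesis enzymes, for Idi1, for 11 summed PPAR alpha targets and for 10 summed proximal tubule markers. Kap makes up most of the proximal tubule sum in every library. Sham 1 has the lowest sham enzyme sum (214 FPKM), the lowest Idi1 value (1.19) and the highest PPAR alpha sum (2590), and day 3 library 1 has a PPAR alpha sum of 2372 with an enzyme sum of 146 FPKM.

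GC content of the transcript separated the day 7 calls. The 11 members called higher at day 7 had a median GC content of 44.2% in their longest transcript (range 41.9% to 48.7%), and the 3 called lower had 56.8% (50.9% to 60.6%), with 49.8% over all tested genes. The same held for all genes called at day 7, with medians of 43.7% for higher and 55.9% for lower. At day 3 the 4 members called higher had a median of 44.3% and the 11 called lower 50.9%. After a smooth trend with GC content and length was removed from each library, 3 members were higher and 11 lower at day 3 (38.3% and 19.5% of all genes), 0 were called at day 7, and 13 were higher and 2 lower between the times (21% and 34.6% of all genes). Such a removal takes away any difference that runs with GC content or length, whatever its source, and the source was not tested.

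**Figure D4:**
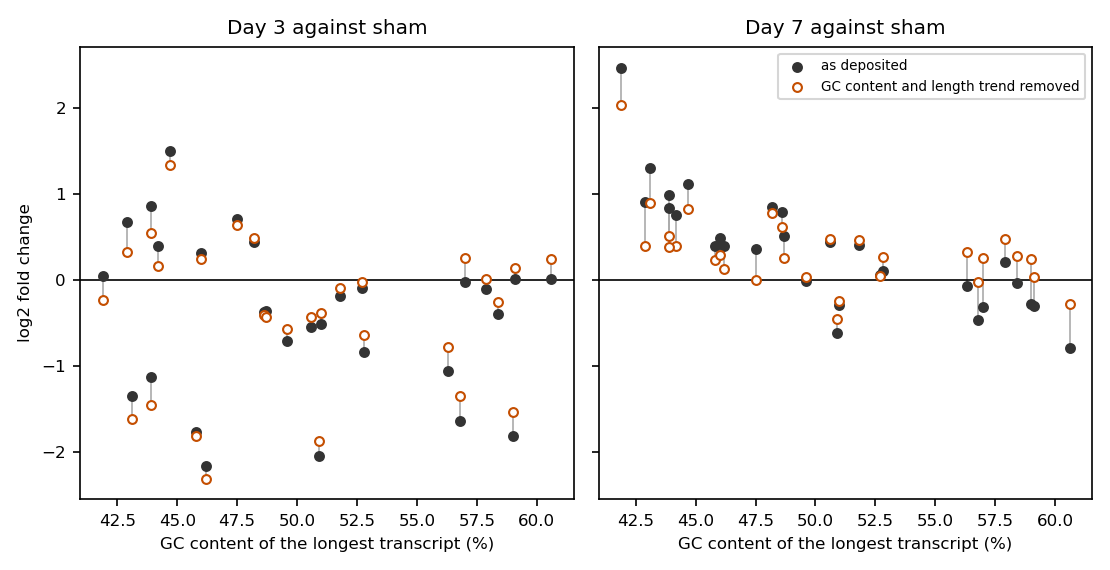
Log2 fold change against sham of each member, plotted against the GC content (%) of its longest transcript, as deposited (filled) and after removal of the trend with GC content and length (open); grey lines join the 2 values of a gene. At day 3 the low values of Cyp51, Ebp and Nsdhl barely move, whereas at day 7 most points move toward 0, such as Nr1h3 from -0.47 to -0.02.

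Companion genes of the pathway follow by role, and their counts are read against the shares of all tested genes: 39.3% higher and 20.6% lower at day 3, 19.3% and 10.4% at day 7, and 21.7% and 33.7% between the times. In fatty acid synthesis, the other branch under SREBP control, 0 of 13 tested genes were higher and 6 lower at day 3, and 8 were higher and 0 lower between the times. At day 7, 1 was higher and 0 lower, under the background. The median was -0.68 at day 3. Acss2, which makes acetyl-CoA from acetate, fell by 2.31 ± 0.16 on the log2 scale at day 3 (limma, adjusted p = 1.35e-05). The desaturases Fads2 (-2.27 ± 0.21) and Scd1 (-2.13 ± 0.32) were close to it. Between the times Scd1 rose by 2.28 ± 0.32, Acss2 by 2.16 ± 0.16 and Fads2 by 2.02 ± 0.21. Scd1 was at 54.17, 88.15 and 39.26 FPKM in sham, and thus lowest in sham 3, not sham 1.

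Of 9 genes of SREBP processing and INSIG turnover, 3 were higher and 3 lower at day 3 (39.3% and 20.6% of all genes), 3 higher and 0 lower at day 7, and 4 higher and 1 lower between the times. Erlin1, a membrane protein of the INSIG complex, was at -1.10 ± 0.19 at day 3 (limma, adjusted p = 0.00109) and rose by 1.83 ± 0.19 between the times (adjusted p = 9.2e-05). Mbtps2, the protease that releases SREBP from the membrane, was higher at day 3 (1.04 ± 0.16) and Fbxw7, which marks nuclear SREBP for degradation, was also higher (1.27 ± 0.21). In the isoprenoid branch, which feeds ubiquinone, dolichol and protein prenylation, 4 of 10 genes were higher and 4 lower at day 3. The list median was 0.20 at day 3 and -0.09 under median-of-ratios scaling. Ggps1, the geranylgeranyl diphosphate synthase, rose by 1.01 ± 0.16 at day 3. At day 7, 4 of the 10 were higher and 0 lower, led by Nus1, a subunit of the dolichol synthase (1.39 ± 0.21, adjusted p = 0.00293).

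Among 12 genes of lipoprotein uptake and lysosomal release, 4 were higher and 3 lower at day 3, 2 higher and 0 lower at day 7, and 6 higher and 5 lower between the times. The day 3 and day 7 higher counts were near the shares of all genes (39.3% and 19.3%). The median at day 3 was 0.10, and -0.18 under median-of-ratios scaling. The falls were those of the proximal tubule endocytic receptors Cubn (-2.94 ± 0.20, limma, adjusted p = 1.04e-05) and Lrp2 (-2.60 ± 0.34), which also belong to the proximal tubule markers, and of the receptor chaperone Lrpap1 (-1.51 ± 0.21). At day 7 Vldlr, a lipoprotein receptor, was higher (0.93 ± 0.19, adjusted p = 0.00901).

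Of 14 genes of sterol transfer, storage and oxysterol metabolism, 3 were higher and 5 lower at day 3, beside 39.3% and 20.6% of all genes. Ch25h, which makes 25-hydroxycholesterol, was at 0.57, 0.64 and 0.55 FPKM in the sham kidneys and 4, 4.52 and 8.51 on day 3 (2.01 ± 0.29, limma, adjusted p = 0.000375). Cyp7b1, which breaks down that oxysterol, was at 65.79, 47.81 and 61.11 FPKM in the sham kidneys and 5, 6.62 and 15.81 on day 3 (-2.68 ± 0.38, adjusted p = 0.000357). Neither gene overlapped sham, and both moved back by day 7, Ch25h by -1.93 ± 0.29 and Cyp7b1 by 2.68 ± 0.38 from day 3. At day 7, 2 of the 14 were higher and 1 lower than sham, and between the times 7 were higher and 3 lower.

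Of 14 listed liver X receptor partners, targets and minor sterol transporters, 10 were tested. At day 3, 2 were higher and 2 lower, and 1 and 6 under median-of-ratios scaling. Arl4c, a small GTPase and receptor target, rose by 2.28 ± 0.25 at day 3 (limma, adjusted p = 0.000106), while Smpdl3a, also a target, fell by 1.24 ± 0.27 (adjusted p = 0.0037) and the heterodimer partner Rxra by 1.03 ± 0.18 (adjusted p = 0.00128). At day 7 limma called 0 of the 10, with 1 higher and 0 lower at an unadjusted p under 0.05, and between the times 3 were higher and 2 lower. After the GC content and length correction, the day 7 calls against sham were 0 in every companion list except the isoprenoid branch, which had 1. At an unadjusted p under 0.05 the other companion lists then had at most 1 gene higher and 1 lower each.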

How the data were processed

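RNA was extracted from kidney with TRIzol and made into libraries with a directional NEB kit for Illumina sequencing, per the labels' protocols. The authors deposited FPKM per gene and library, with 2 decimals, per the file headers. The submitters' processing notes name HISAT, StringTie, FastQC 0.10.1 and GRCm38 without roles. For the annotation release and the strand setting of the counting, nothing is stated in the sources used here. The values hold no counts, so read depth is unknown and no counting interval is given.

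Gene IDs were matched to symbols for 55144 of 55385, with coordinates from GENCODE M21 on GRCm38. The test took the 13718 genes that reached 1 FPKM in 3 or more of 9 libraries, on log2(FPKM + 1), a scale that understates changes of weak genes. All 9 libraries entered 1 limma fit (version 3.58.1, R 4.3.3) with group as the sole term, eBayes and a mean-variance trend. Tests were two-sided, p-values were adjusted over the whole table by Benjamini-Hochberg, and an adjusted p under 0.05 was called. Errors are standard errors from limma or SD over 3 libraries. The script was tested on simulated data. The p-values set each difference between group means against the spread of these libraries within their groups.

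The members and gene lists were chosen with earlier results of these data known. Values in every library are given for members called with a log2 fold change of at least 1, with a sham span of at least 1, or encoding regulators, receptors or pumps. From each companion list up to 3 called genes per comparison qualified, by size of change. Alternatives changed the pseudocount (0.1), the filter (none, or 5 FPKM), the scaling (median-of-ratios, quantile), the variance (robust), the libraries fitted (the 6 compared) and the fold required (2-fold). Others were a replicate block, a correction for GC content and length (natural splines with 5 degrees of freedom on each, fitted per library to 13707 genes with a value), that correction with the block, and leaving out each library. Leaving out sham 1 and day 3 library 1 together, and protein-coding genes only, were added after the data were seen. Some genes that the naming rule would have picked are not reported here.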

Additional observations from a re-analysis of the deposited data

Results flagged for a closer look

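For 3 genes the changes from sham at day 3 and day 7 had opposite signs and both were called. The difference between the times comes from the same fit. For genes picked in this way its call follows from the other calls and is not separate evidence. Hmgcs1 was at -1.35 and 1.30 on the log2 scale, a difference of 2.64 (limma, adjusted p = 5.65e-05). Stard4 was at -1.13 and 0.99, a difference of 2.12 (adjusted p = 5.63e-05). Lss was at -0.36 and 0.51, a difference of 0.87 (adjusted p = 0.000783). The difference between the times was called under every alternative fit for all 3 genes where they were tested; at 0.87 Lss did not reach the 2-fold minimum. The rise above sham at day 7 was lost for all 3 after the GC content and length correction, with values of 0.89, 0.51 and 0.25, and the day 3 fall of Lss was lost under 11 alternatives. Groups of 3 libraries are too small for a check of single outlying libraries.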

How the results depend on the processing

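No call on a member turned its direction under any alternative. Members called higher at day 3 went from 4 to 2 under median-of-ratios scaling, to 2 with quantile normalization, to 2 under the replicate block with the GC content and length correction, and to 1 at a 2-fold minimum. Those called lower went from 11 to 7 with the filter at 5 FPKM, which tests fewer members. At day 7, higher calls went from 11 to 6 without a filter, 6 under median-of-ratios scaling, 3 at a 2-fold minimum, and 0 under the GC content and length correction with or without the replicate block (0). Lower calls went from 3 to 5 with quantile normalization, 5 without sham 1 and day 3 library 1, 0 at a 2-fold minimum, and 0 and 0 under the correction without and with the block. From day 3 to day 7, lower calls went from 2 to 1 under median-of-ratios scaling, 1 with quantile normalization, 1 under the replicate block, 1 under the block with the correction, and 0 at a 2-fold minimum. The causes were not tested. Leaving out 1 library gave 3 to 5 higher and 10 to 14 lower calls at day 3, 6 to 11 higher and 1 to 4 lower at day 7 (1 without day 7 library 2), and 13 to 15 higher and 1 to 2 lower between the times. Correlations of same-numbered libraries ran from -0.0543 to 0.238, and those of differently numbered libraries from -0.28 to 0.115. These ranges overlap and do not settle whether the numbers pair the libraries. The replicate block kept the 4 and 11 calls at day 3 and the 11 and 3 at day 7. Read depth is unknown, so the counting error of members near 1 FPKM (Abca1, Abcg1, Lss) cannot be given.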

Other observations

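Oxysterol genes outside the 29 showed wide and opposite values. Ch25h averaged 0.587 ± 0.0473 FPKM in sham, 5.68 ± 2.47 at day 3 and 0.743 ± 0.601 at day 7 (SD, n = 3), and Cyp7b1 averaged 58.2 ± 9.33, 9.14 ± 5.83 and 59.7 ± 17.6 FPKM. Genes of the circadian clock, read as a check on the hour of sampling, had 8 of 14 higher and 3 lower at day 3 (39.3% and 20.6% of all tested genes) and 2 higher and 1 lower at day 7 (19.3% and 10.4%). Their summed level was 44.8, 51.1 and 53.5 FPKM in the sham kidneys and 85.1, 102 and 93.8 on day 3. Acat3, the neighbour of Acat2, stood at 49.16 FPKM in day 3 library 1 and at 15.22 FPKM or less in the other libraries. Of 9 adipose markers 4 were tested, and 3 of these were higher at day 3, beside 39.3% of all tested genes. Cidec was at 26.90, 9.06 and 6.12 FPKM there against 0.50 or less in sham. Cfd was not called, at 9.88, 0 and 0 FPKM on day 3 and 4.82, 0.90 and 1.79 in sham. Adipoq, not tested, was at 2.16, 0.39 and 0.25 FPKM on day 3.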
